A study of Mus musculus with 32 samples.

Results

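The proximal end of the maxilla, the primordium of the upper jaw, was compared between mouse embryos that lacked Alk5 in the neural crest and their control littermates, on 4 mutant and 4 control arrays of the 32 in the study. All embryos were of the C57B6 background at embryonic day 13.5 and came from matings of Wnt1cre;Alk5fl/+ with Alk5fl/fl mice. Mutant embryos were recognised by cleft palate and a defect of the calvaria, and the labels do not say which of the possible genotypes the control littermates carried. The arrays were chosen by their titles (control or Alk5 knockout, maxilla, proximal), and the other 24 arrays cover the distal maxilla and both ends of the mandible, again with 4 control and 4 mutant arrays per region. Values are log2 expression after RMA, a normalization that draws all arrays to a common distribution, so a difference of 1 is a 2-fold change. Within each genotype the arrays are numbered 1 to 4. Whether each number stands for an embryo of its own is not stated, so the p-values refer to the variation among these arrays, some of which can be technical.

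Alk5 is the type I receptor through which TGF-beta ligands signal, and its gene is Tgfbr1. Ligand binding brings it together with the type II receptor, after which it phosphorylates SMAD2 and SMAD3, which act with SMAD4 on target genes. Wnt1-Cre removes floxed alleles from neural crest cells, which form the mesenchyme, cartilage and bone of the face. In contrast, the macrophages, vessel endothelium, muscle fibres and surface epithelium of the jaw come from other lineages and keep the receptor. These are bulk tissue samples, in which fewer cells of a type and less RNA per cell cannot be told apart.

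The 8 arrays all showed genes of facial mesenchyme, but they differed among themselves in ways that genotype did not account for. The mesenchymal transcription factor genes Prrx1 and Twist1 lay at 12.46 to 13.69 and 12.21 to 13.01. Hand2, which marks the lower jaw, lay at 5.76 to 10.17 here and at 10.71 to 13.66 on the 16 mandible arrays. In a principal component analysis of the 8 arrays, component 1 (40.6% of the variance) placed control 1 and 2 with mutant 1 and 4, and control 3 and 4 with mutant 2 and 3. A list of ventral forebrain and hypothalamus genes, drawn up after the arrays had been compared (17 of 21 measured, among them Six6, Otp and Nkx2-1), had a mean of 9.92 on control 3, 9.37 on mutant 2 and 9.99 on mutant 3, against 5.83 to 6.65 on the other proximal arrays and 5.54 to 6.05 in the mandible. In control number 2 and mutant number 4 the same genes were high on the array labelled distal maxilla instead, with means of 9.58 and 9.91. Control 4 had the lowest forebrain mean (5.83) and the highest mean of 19 neuron genes, 11.50 against 8.62 to 10.28 on the other 7 arrays. Control 1 had the highest mean of 20 cartilage genes, 10.77 against 8.27 to 9.84. Xist was high and Y-linked genes were low on control 2 and mutant 1, so the sexes of the 2 genotypes were unequal in numbers 1 and 2. Control 3 read 10.72 for Xist at the proximal and 9.69 at the distal end of the maxilla with Y-linked means of 9.97 and 10.05, where the other proximal arrays with high Y-linked genes read 6.46 to 6.83 for Xist. The arrays of number 1 also read 13.93 and 13.94 for the Cre spike-in control (a bacteriophage transcript added at hybridisation), against 12.70 to 12.97 on the others.

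**Figure D1:**
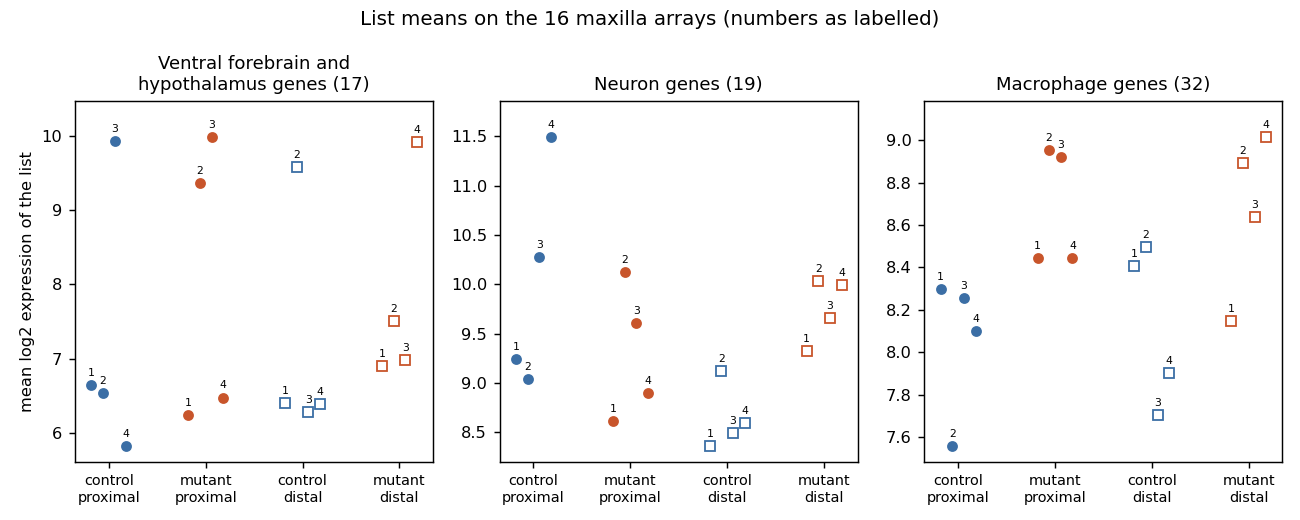
Mean log2 expression of 17 ventral forebrain and hypothalamus genes, 19 neuron genes and 32 macrophage genes (vertical axes) on the 16 maxilla arrays, with control and mutant, proximal and distal ends along the horizontal axes. Each point is an array with its labelled number. Forebrain genes stand at 9.37 to 9.99 on control 3, mutant 2 and mutant 3 of the proximal end and near 6 on the other proximal arrays, while the macrophage means of all 4 mutant proximal arrays lie above those of all 4 controls.

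Tgfbr1 is the gene targeted in the mutants. Its tested probe set read 12.78, 12.78, 12.74 and 12.55 on control arrays 1 to 4 and 12.88, 12.91, 12.80 and 12.89 on mutant arrays 1 to 4. All mutants lay slightly above all controls (difference 0.16 ± 0.07 SE), which did not pass the test (limma adjusted p = 0.978). On the other 2 probe sets of the gene the groups overlapped. Where these probes lie relative to the floxed part of the gene was not determined, so Tgfbr1 does not check the genotype labels.

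Genes of the TGF-beta pathway itself gave no call. Of 19 measured ligands, receptors and co-receptors, 9 had a higher and 10 a lower mutant mean, with a median difference of -0.02 against 0.02 over all 13705 genes tested. Tgfbr2, the type II receptor, differed by -0.23 ± 0.15, and the ligand genes Tgfb2 and Tgfb3 by -0.06 ± 0.17 and -0.22 ± 0.20. The latent TGF-beta binding proteins Ltbp1 (-0.49 ± 0.20) and Ltbp3 (-0.63 ± 0.29), which hold the ligands in the matrix, and the activin subunit gene Inhba (-0.44 ± 0.21) had limma unadjusted p of 0.0197, 0.0394 and 0.0478. These were the 3 of the 19 that were lower at an unadjusted p under 0.05 (15.8%, against 2.25% of all genes). At the same threshold 1 was higher (5.26%, against 2.65% of all genes). Without control 1, on which Ltbp3 read 12.05 against 10.81 to 10.97 on the other controls, or without mutant 3, 0 of the list were lower at that threshold, and without mutant 4 it was 1. The 15 SMAD proteins and repressors stayed within -0.15 and 0.16, and none reached an unadjusted p under 0.05.

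Response genes of TGF-beta went in opposite directions. Of 26 measured, 0 passed the test, 3 were lower and 2 higher at an unadjusted p under 0.05, a threshold that 2.25% of all tested genes passed as lower and 2.65% as higher. Scx, a transcription factor of tendon progenitors, read 8.18, 8.04, 8.33 and 8.33 in controls and 6.86, 7.84, 7.32 and 6.68 in mutants (difference -1.04 ± 0.30, limma adjusted p = 0.281). The groups did not overlap, and mutant 2 came close to the lowest control. Lmcd1 read 10.06, 9.08, 9.42 and 9.47 against 8.59, 8.90, 8.74 and 8.37 (-0.86 ± 0.23, limma adjusted p = 0.230), again without overlap. Fn1, which codes for fibronectin, differed by -0.34 ± 0.10. The smooth muscle genes Tagln (0.64 ± 0.24) and Cnn1 (0.68 ± 0.25) had higher mutant means, for each with mutants 2 and 3 above every control and mutants 1 and 4 inside the control range. Without mutant 3, and without the 3 arrays high in forebrain genes, 0 response genes were higher at an unadjusted p under 0.05, and the number lower was 3 and 5.

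Over all genes, 9 of 13705 (0.0657%) passed the test at an adjusted p under 0.05, 8 of them higher in the mutants (0.0584%) and 1 lower (0.00730%). The 9 were Eno3, C3ar1, Ms4a7, Trem2, Igdcc3, Nfya, Lin28a and Mpeg1, which rose, and H2az2, which fell. In none of them did a mutant array overlap a control array. At an unadjusted p under 0.05 there were 363 genes higher (2.65%) and 309 lower (2.25%), together 4.90%, and in 285 (2.08%) all mutant arrays lay above all control arrays, in 148 (1.08%) below. The shares of 2.65% and 2.25% are the background of the list counts below. The calls rest on the spread shared by all 32 arrays: a limma fit of these 8 arrays alone gave 0 calls, with 628 genes at an unadjusted p under 0.05. Leaving out control 1, control 3, mutant 2 or mutant 3 gave 3, 22, 1 and 2 calls, and leaving out the 3 arrays high in forebrain genes gave 1, although each of the 9 genes kept its direction under every alternative in which it was tested. Genes at an unadjusted p under 0.05 numbered 672 in the main fit and 590 to 805 with a single array left out. They numbered 969 without the 3 arrays high in forebrain genes. List counts of different fits therefore have different backgrounds.

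**Figure D2:**
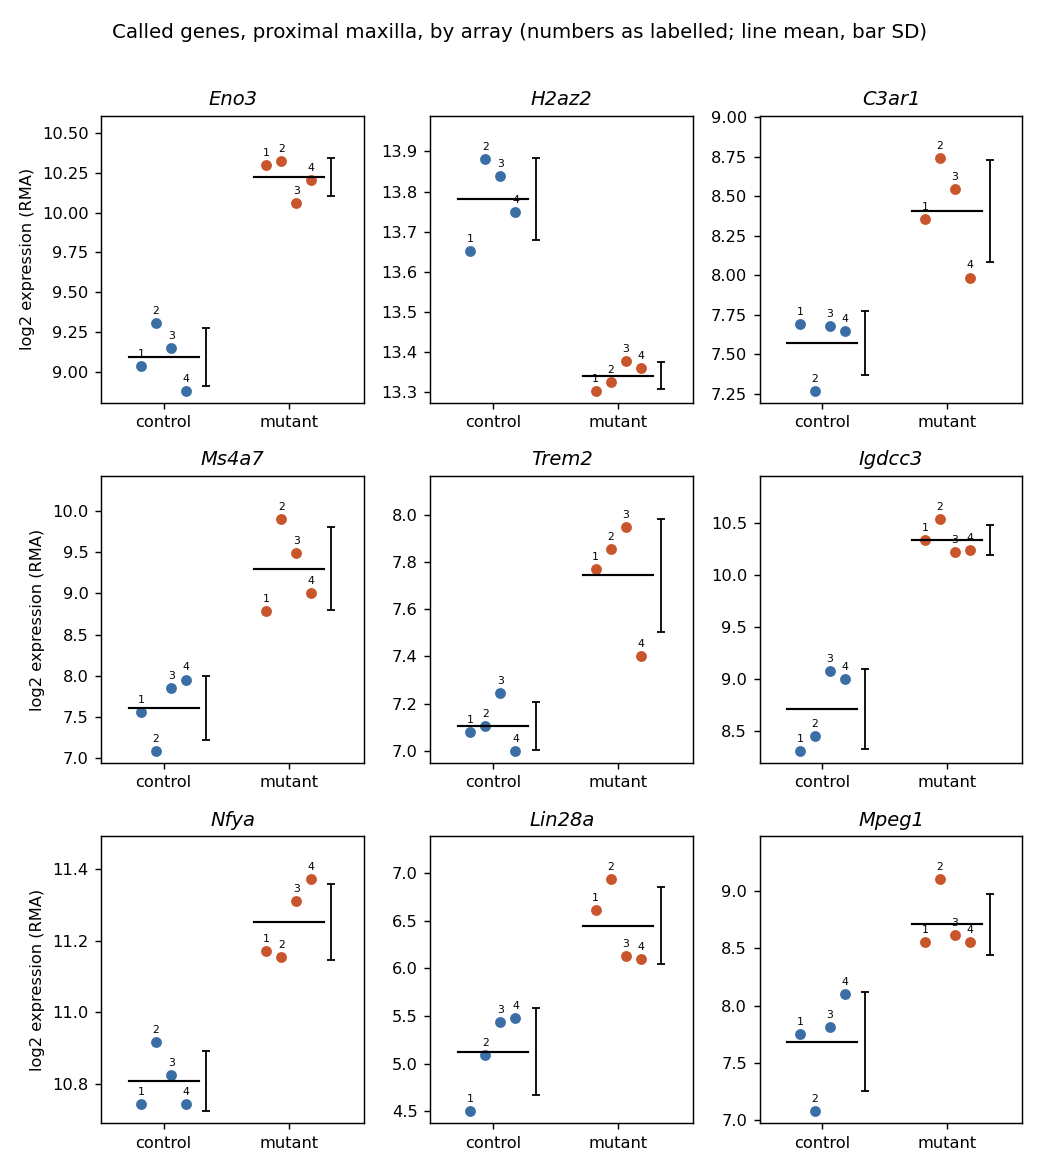
Log2 expression (vertical axes) of the 9 called genes on the 4 control and 4 mutant arrays of the proximal maxilla, each point an array with its labelled number, the line the mean and the bar 1 SD. The groups do not overlap in any panel, and H2az2 is the gene that is lower in mutants.

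Macrophage genes formed the largest group of calls. Macrophages are phagocytes of blood origin that clear dying cells and already populate the face at this stage. Ms4a7, a membrane protein gene of the macrophage lineage, read 7.56, 7.08, 7.85 and 7.95 in controls and 8.78, 9.91, 9.49 and 9.005 in mutants. Every mutant array was above the highest control, and the means differed by 1.68 ± 0.29, which is 3.21-fold (limma adjusted p = 0.0113). Mpeg1, which codes for the pore-forming protein perforin-2, read 7.75, 7.08, 7.82 and 8.10 against 8.56, 9.11, 8.61 and 8.56 (1.02 ± 0.20, limma adjusted p = 0.0420). C3ar1, the receptor for the complement fragment C3a, read 7.69, 7.27, 7.68 and 7.65 against 8.36, 8.74, 8.54 and 7.99 (0.83 ± 0.14, limma adjusted p = 0.0113). Trem2, a lipid-sensing receptor of phagocytes, read 7.08, 7.10, 7.24 and 6.999 against 7.77, 7.86, 7.95 and 7.401 (0.64 ± 0.12, limma adjusted p = 0.0286). Control 2 was the lowest control for 3 of these 4 genes, and mutant 4 the lowest mutant for C3ar1 and Trem2. Other probe sets of C3ar1 gave 0.77 with overlap and 1.02 without. Those of Ms4a7 and Trem2 were removed by a filter for low signal and gave 0.07 and -0.08, with overlap.

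Of 38 listed macrophage genes 32 could be tested, and the 4 named above passed the test, all higher in mutants. The number that passed was 0 without control 2, without mutant 2, without mutant 3 or without the 3 arrays high in forebrain genes, 1 without control 1 and 2 to 5 without each of the others. The list was drawn up with earlier results of these data known. A higher mutant mean was seen for 30 of the 32, against 57.5% of all genes, and the list's median difference was 0.72 against 0.02 for all genes. At an unadjusted p under 0.05, 23 were higher (71.9%, against 2.65% of all genes) and 0 lower (2.25% of all genes). For 17 (53.1%, against 2.08% of all genes) all mutant arrays lay above all controls. The list mean was 8.30, 7.56, 8.25 and 8.10 on the controls and 8.45, 8.95, 8.92 and 8.45 on the mutants, so mutants 2 and 3 were highest and control 2 was lowest. Without control 2 the count at an unadjusted p fell to 17, and without the 3 arrays high in forebrain genes to 10. The part that forebrain tissue has in the macrophage difference was not tested.

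The genes that did not pass include the best known members. Apoe, a lipid carrier that macrophages and glia make, read 10.41, 10.32, 11.001 and 10.76 in controls and 11.53, 12.12, 11.89 and 11.42 in mutants, a difference of 1.11 ± 0.24 just outside the threshold (limma adjusted p = 0.0583). Adgre1, the gene of a classical surface antigen of mouse macrophages, differed by 1.06 ± 0.24 (limma adjusted p = 0.101). Csf1r, the receptor for the main macrophage growth factor, differed by 1.06 ± 0.32 (limma adjusted p = 0.332). The 3 complement component genes C1qa, C1qb and C1qc differed by 1.00 to 1.09, each with no overlap between groups. At the other end, Spi1, which codes for the macrophage transcription factor PU.1, differed by 0.10 ± 0.21, the mannose receptor gene Mrc1 by 0.22 ± 0.36, Pf4 by -0.29 ± 0.21 and Lyve1, shared by macrophages and lymphatic vessels, by -0.67 ± 0.79. Other blood cell lists gave no such values. Of 10 neutrophil and mast cell genes and of 8 erythroid genes, 0 reached an unadjusted p under 0.05, and the medians were -0.10 and 0.05.

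**Figure D3:**
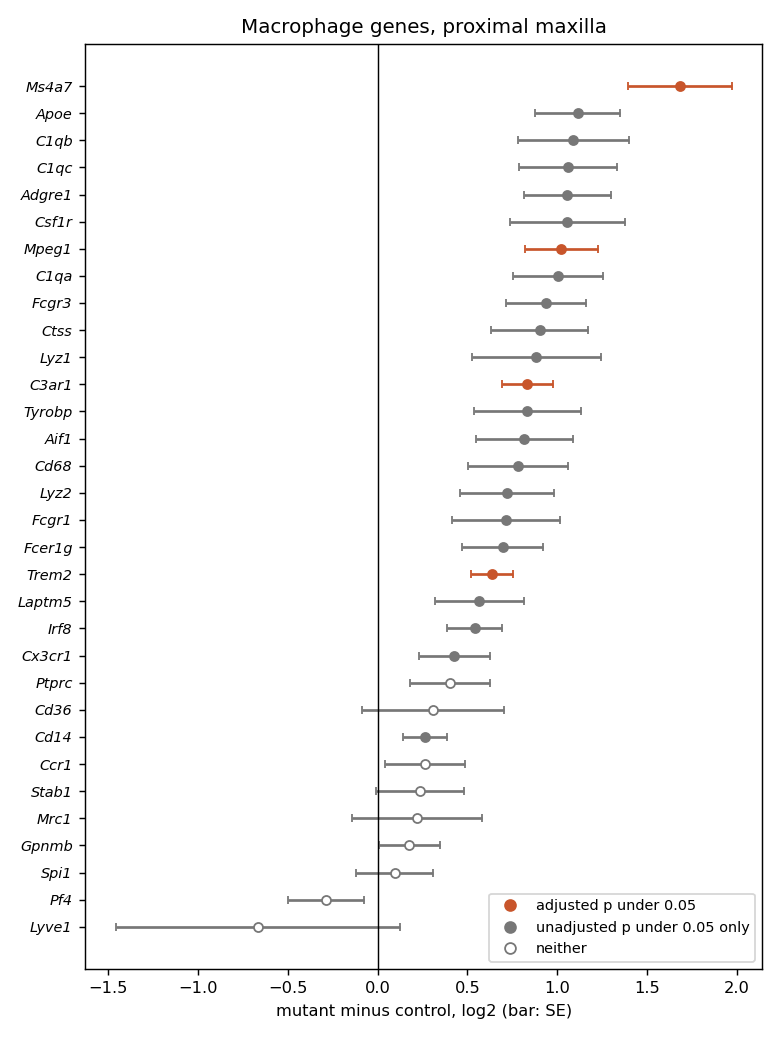
Mutant minus control difference (horizontal axis, log2, bar 1 SE) of each of the 32 tested macrophage genes in the proximal maxilla, ordered by size. The 4 genes that passed the test are in orange, Ms4a7 is the highest at 1.68, and Pf4 and Lyve1 are the only genes below 0.

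PU.1 binds purine-rich DNA around a GGAA core and is known to drive many macrophage genes. The letters GAGGAA were searched on both strands in the 250 bases before each start site of RefSeq genes (GRCm38.p6), and overlap with other motifs was not examined. They occur in 23.3% of 32851 such windows in the table, and in 54.8% of the 31 windows that belong to the 25 tested macrophage genes found there. By gene, 15 of these 25 had a match. Of the 17 macrophage genes whose mutant arrays all lay above the controls, 13 were found and 8 had a match. Over the 12 windows of the 9 called genes of all kinds, 2 (16.7%) had a match. Whether matches go with the mutant difference was not tested. Of the 4 called genes Trem2 had a match, and Ms4a7, Mpeg1 and C3ar1 had none. The matches of 7 genes are shown with 10 bases on each side, read 5′ to 3′ on the strand that carries the motif, which is in capitals, to let the surrounding sequence be compared.
Apoe, chr7:19698515-19698540, minus strand: cgggaagaaaGAGGAAtgtaagctgg
C1qb, chr4:136886215-136886240, minus strand: agcaggatggGAGGAAcagaggggtg
C1qc, chr4:136893092-136893117, plus strand: gtgccaaaatGAGGAAgtgtctgccg
Cd68, chr11:69666380-69666405, minus strand: tcttaccaatGAGGAAagggcttccc
Ctss, chr3:95526612-95526637, plus strand: cacagggttgGAGGAAaactttgtcc
Fcgr1, chr3:96294009-96294034, plus strand: gattagaaaaGAGGAAggaagttgcc
Trem2, chr17:48346351-48346376, minus strand: gtgagggaggGAGGAAggaaaggagg
Its base farthest upstream lies 30 bases before the start site in C1qb, 40 in Trem2 and 55 in Fcgr1, and farther away in the others. A match describes these letters and is not evidence of binding.

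Igdcc3 and Lin28a were called from a list of the Lin28 and let-7 system. LIN28 proteins bind precursors of let-7 microRNAs and block their maturation, and let-7 represses messages that favour an early, proliferative state, so Lin28a is normally lost from tissues as they mature. Igdcc3, an immunoglobulin superfamily gene listed here as linked to that system, read 8.31, 8.45, 9.07 and 8.9997 in controls and 10.33, 10.54, 10.22 and 10.24 in mutants. The mutants were tightly grouped and all at least 1 unit above every control, with a difference of 1.62 ± 0.30, or 3.08-fold (limma adjusted p = 0.0286). A second probe set of Igdcc3 gave 1.16, also without overlap, and another, removed by the filter for low signal, gave 0.06 with overlap. Lin28a read 4.50, 5.09, 5.43 and 5.48 against 6.61, 6.94, 6.13 and 6.10 (1.32 ± 0.26, limma adjusted p = 0.0420). Its signal was low, under the percentile used as a filter in every control and in 3 of 4 mutants, where RMA compresses differences. Over all regions it lay above that level on 6 arrays, all of them mutant, so it was tested only through the genotype in which it is high, and a filter that asked for whole groups left it out. Another Lin28a probe set, removed by the filter, gave 0.07 with overlap.

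All 16 tested genes of this list had a higher mutant mean, against 57.5% of all genes, and 2 passed the test. These counts and those that follow include Lin28a, which was tested only through the genotype in which it is high. The list was drawn up with earlier results of these data known. At an unadjusted p under 0.05, 8 (50%) were higher, against 2.65% of all genes. The median difference was 0.28. Sall4, a zinc finger factor of early embryonic cells, read 7.21, 9.34, 7.98 and 7.69 in controls and 9.21, 9.89, 9.45 and 10.52 in mutants, a difference of 1.72 ± 0.40 in which control 2 overlapped the mutants (limma adjusted p = 0.101). Trim71, the mouse homologue of the worm heterochronic gene lin-41 and a let-7 target, read 6.55, 7.401, 7.44 and 7.44 against 8.96, 8.32, 7.995 and 7.30, where mutant 4 lay among the controls (0.94 ± 0.28, limma adjusted p = 0.298). Arid3b (0.47 ± 0.16), Nr6a1 (0.25 ± 0.09), E2f5 (0.30 ± 0.13) and Prtg (0.52 ± 0.22) made up the rest of the 8. Hmga2, the best known let-7 target, differed by 0.05 ± 0.16, and Igf2bp1 and Igf2bp3 by 0.26 ± 0.16 and 0.17 ± 0.10. The number that passed was 0 without control 1, mutant 1, mutant 2 or mutant 3, each left out alone, and without the 3 arrays high in forebrain genes, while the count at an unadjusted p was 7 to 9 in these fits.

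Mature let-7 was not measured by these arrays, and it is shown here because its seed (bases 2 to 8, in capitals) defines which messages it can pair with. Only let-7 and miR-98 entries were searched for it. Among those of RefSeq (GRCm38.p6), 10 mature mouse names carry that seed. They differ only outside it, as these 3 show.
let-7a-5p, chr13:48538239-48538260, minus strand: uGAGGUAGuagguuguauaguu
let-7g-5p, chr9:106178846-106178867, plus strand: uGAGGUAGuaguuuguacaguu
miR-98-5p, chrX:151913229-151913250, plus strand: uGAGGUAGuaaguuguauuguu

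The remaining 3 calls were a glycolytic enzyme, a histone variant and a CCAAT-binding factor. Eno3, the muscle form of enolase, read 9.04, 9.31, 9.15 and 8.88 in controls and 10.30, 10.32, 10.06 and 10.20 in mutants (1.13 ± 0.18, 2.19-fold, limma adjusted p = 0.0113), with a gap between the groups wider than the range within either. The mean of 33 muscle genes was 6.996, 7.15, 8.54 and 7.80 on the controls and 8.66, 9.37, 8.18 and 6.66 on the mutants, so mutants 1 and 2 were highest and mutant 4 lowest. Of these 33 genes 32 had a higher mutant mean, Eno3 alone passed the test and no other had an unadjusted p under 0.05, but without mutant 4 the count at that threshold was 16 and without control 3 it was 5. The part of muscle in the Eno3 difference was not tested. The other glycolysis and hypoxia response genes, 25 measured, had 20 higher means, and none passed. At an unadjusted p under 0.05, 6 (24%) were higher, against 2.65% of all genes, and 0 lower. Among the 6 were the hypoxia-induced Bnip3 (0.37 ± 0.14), Ankrd37 (0.55 ± 0.22), Egln3 (0.49 ± 0.21) and Adm (0.52 ± 0.22). Without mutant 4 that count was 1, without control 4 it was 2, without mutant 2 it was 3 and without the 3 arrays high in forebrain genes it was 0.

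H2az2, one of the genes for the histone variant H2A.Z, which sits at the start sites of active genes, read 13.65, 13.88, 13.84 and 13.75 in controls and 13.30, 13.32, 13.38 and 13.36 in mutants. It fell by 0.44 on the log2 scale (SE 0.07, limma adjusted p = 0.0113), with an SD of 0.03 among the mutants and 0.10 among the controls. Its other probe set read 0.65 lower, also without overlap. H2az1, the other H2A.Z gene, differed by 0.02 ± 0.09. Nfya, the DNA-binding subunit of the factor NF-Y, read 10.74, 10.92, 10.82 and 10.74 against 11.17, 11.16, 11.31 and 11.37 (0.45 ± 0.08, limma adjusted p = 0.0295). On its other probe sets the groups overlapped, with a difference of 0.90 where kept by the filter and 0.43 where removed. The genes of the other subunits, Nfyb and Nfyc, differed by 0.02 ± 0.15 and 0.05 ± 0.08.

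NF-Y binds the CCAAT box, a common element of promoters. The letters CCAAT, searched on both strands with no check of overlap with other motifs, occur in 33.8% of the 32851 RefSeq windows of 250 bases before a start site and in 5 of the 12 windows of the 9 called genes. The window of H2az2 holds 4 copies, all on the opposite strand and therefore read here as ATTGG, in capitals. The sequence is printed 5′ to 3′ on the minus strand of GRCm38.p6, the strand of the gene, at chr11:6444444-6444693.
H2az2: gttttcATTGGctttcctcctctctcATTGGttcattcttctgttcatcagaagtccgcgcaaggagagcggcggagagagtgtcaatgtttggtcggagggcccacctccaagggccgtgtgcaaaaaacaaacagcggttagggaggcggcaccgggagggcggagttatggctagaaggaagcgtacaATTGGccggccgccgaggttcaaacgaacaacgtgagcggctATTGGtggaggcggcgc
The array data do not test whether NF-Y binds there.

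The 9 genes were next compared with the other jaw regions, which have their own control and mutant arrays. Arrays of equal number in different regions can come from the same embryos. Xist was high in all 4 regions of control 2 (13.53 to 14.06) and of mutant 1 (13.34 to 13.90). The fit treats these arrays as independent, so a call in several regions is not independent replication. Eno3, H2az2 and Igdcc3 were called in all 4 regions. Eno3 differed by 1.13, 1.19, 1.01 and 1.04 in proximal maxilla, distal maxilla, proximal mandible and distal mandible, and Igdcc3 by 1.62, 1.93, 2.36 and 1.81. Nfya was called in both mandible ends and not in the distal maxilla, where it differed by 0.33 (limma adjusted p = 0.0605). The 4 macrophage genes and Lin28a were called in both ends of the maxilla and in the proximal mandible but not in the distal mandible. There Ms4a7 differed by 0.21 ± 0.29, Mpeg1 by 0.15 ± 0.20, C3ar1 by 0.12 ± 0.14, Trem2 by 0.28 ± 0.12 and Lin28a by 0.27 ± 0.26. Lin28a lay above the filter level on 1 mutant array of the proximal maxilla, 3 of the proximal mandible, 2 of the distal maxilla and 0 of the distal mandible. No control array of any region was above it, so the calls of Lin28a are not a separate test of this pattern.

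No difference between the effect in the proximal maxilla and the mean effect of the other regions was shown for these genes. Over all genes that test called 0 in limma, with 441 at an unadjusted p under 0.05. For Ms4a7 the excess in the proximal maxilla was 0.41 (95% interval -0.27 to 1.09), for C3ar1 0.27 (-0.06 to 0.61) and for Lin28a 0.00 (-0.62 to 0.61), so effects of moderate size in either direction remain possible. For Lin28a most arrays lie under the filter level, where RMA compresses differences. The medians of the macrophage list were 0.72, 0.58, 0.66 and -0.22 in proximal maxilla, distal maxilla, proximal mandible and distal mandible, and those of the Lin28 and let-7 list 0.28, 0.19, 0.33 and 0.36. The number of genes called for genotype was lowest in the proximal maxilla, with 9, against 108 (0.788%) for the distal maxilla, 172 (1.26%) for the proximal mandible and 262 (1.91%) for the distal mandible.

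**Figure D4:**
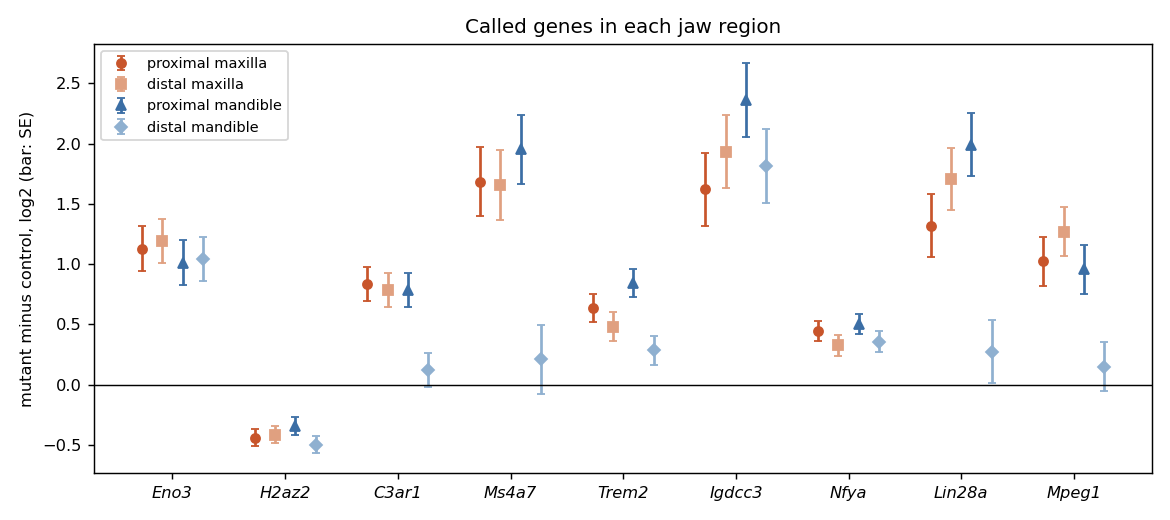
Mutant minus control difference (vertical axis, log2, bar 1 SE) of the 9 genes called in the proximal maxilla, in each of the 4 jaw regions. Eno3, H2az2 and Nfya lie close together in all regions, while Ms4a7, C3ar1, Mpeg1 and Lin28a lie between 0.12 and 0.27 in the distal mandible. Lin28a is under the filter level on every distal mandible array.

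Genes of the skeletal lineages, which descend from neural crest in the face, were mostly lower in the mutants without a call. Of 20 cartilage genes 19 had a lower mutant mean, with a median of -0.70, and 0 passed the test. At an unadjusted p under 0.05, 7 (35%) were lower, against 2.25% of all genes. Acan, the main proteoglycan of cartilage, read 10.18, 8.49, 8.29 and 8.54 in controls and 6.36, 8.96, 7.71 and 6.501 in mutants (-1.49 ± 0.59). The groups overlapped, with control 1 high and mutants 1 and 4 low. Col9a3, a collagen IX chain, was likewise highest on control 1 and lowest on mutants 1 and 4 (12.37, 11.12, 11.03 and 10.83 against 9.03, 11.32, 10.36 and 9.47), and Col2a1 differed by -0.48 ± 0.36. Without control 1 the count of 7 became 1 and the median -0.35, and without mutant 1 or mutant 4 the count was 2, whereas without control 4 it was 9 and without mutant 2, or without the 3 arrays high in forebrain genes, it was 12, with medians of -0.92 and -1.11 for the last pair. Of 13 bone genes 9 were lower, and Tnfsf11, the osteoclast-inducing ligand RANKL, alone had an unadjusted p under 0.05, with 7.04 on control 1 against 5.06 to 5.27 on the other controls. Without control 1, mutant 1, mutant 2 or mutant 3 the count of bone genes was 0, and without control 3, control 4 or mutant 4 it was 2.

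Matrix genes were also mostly lower without a call. Of 38 collagens, proteoglycans and elastic fibre genes 31 had a lower mutant mean, and 6 were lower and 1 higher at an unadjusted p under 0.05, with a median of -0.20. Mfap4, a glycoprotein of elastic fibres, read 12.78, 12.80, 12.33 and 12.55 in controls and 12.28, 12.22, 12.01 and 12.14 in mutants, all below the lowest control (-0.45 ± 0.10, limma adjusted p = 0.0975). Fn1 read 13.18, 13.27, 13.11 and 13.45 against 12.90, 12.98, 12.86 and 12.93 (limma adjusted p = 0.375). Aspn, a small leucine-rich proteoglycan that binds TGF-beta, differed by -1.57 ± 0.63 with overlapping groups, and Mfap5, another elastic fibre protein, by 1.11 ± 0.48 in the other direction. Without control 1 the 6 became 2, and without the 3 arrays high in forebrain genes 9.

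Genes of palate and jaw patterning gave 0 calls as well, as did the retinoic acid, BMP and FGF lists. Of 21 palate and tooth factors 5 had a higher and 16 a lower mutant mean, with a median of -0.18. At an unadjusted p under 0.05, 0 were higher and 2 lower (9.52%, against 2.25% of all genes). Of 30 jaw patterning genes 19 were higher and 11 lower, with 2 higher (6.67%, against 2.65%) and 1 lower (3.33%) at that threshold. Runx1, needed for fusion of the anterior palate, read 10.84, 10.03, 9.65 and 10.16 in controls and 9.11, 9.61, 9.08 and 9.18 in mutants, without overlap although control 3 and mutant 2 differed by only 0.03 (-0.92 ± 0.22, limma adjusted p = 0.119). Pax9, a regulator of palate and tooth mesenchyme, differed by -0.71 ± 0.23 with overlap. Of 15 retinoic acid genes 8 were higher and 7 lower, with a median of 0.00 and 1 in each direction at an unadjusted p under 0.05 (6.67% each). Crabp1, a retinoic acid binding protein, read 12.94, 12.82, 12.18 and 12.44 against 13.62, 13.09, 13.11 and 13.65, so each mutant was above all controls (0.77 ± 0.18, limma adjusted p = 0.107). Of 22 BMP pathway genes 10 were higher and 12 lower, with a median of -0.03 and with 0 higher and 2 lower (9.09%) at that threshold. Among them Bmper, a secreted BMP modulator, read 10.88, 11.02, 10.75 and 11.17 against 9.44, 10.72, 10.27 and 9.75 (-0.91 ± 0.25), and the receptor gene Acvr1 differed by -0.31 ± 0.11, both without overlap and neither called. Of 18 FGF pathway genes 7 were higher and 11 lower, with a median of -0.04 and with 0 higher and 1 lower (5.56%) at that threshold. Etv5, a transcriptional target of FGF signalling, differed by -0.48 ± 0.13. Of 14 Hedgehog pathway genes, 0 had an unadjusted p under 0.05. Of 27 Wnt pathway genes 13 were higher and 14 lower, with 0 called and with 1 higher (3.70%) and 2 lower (7.41%) at that threshold.

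Cell cycle genes had small, mostly positive differences: 23 of 27 were higher, with a median of 0.09. At an unadjusted p under 0.05, 3 (11.1%) were higher, against 2.65% of all genes. Mcm3, a subunit of the replicative helicase, had the smallest p (0.18 ± 0.06, limma unadjusted p = 0.00791). Without mutant 4 the 3 became 0, without control 1, control 4 or mutant 1 it was 1, and without the 3 arrays high in forebrain genes it was 7. Over all genes, 969 passed that threshold in the last of these fits, against 672 in the main fit. Of 15 endothelial genes 1 was higher and 1 lower at that threshold, the latter Erg (10.86, 10.21, 9.89 and 9.70 in controls, 8.75, 9.60, 9.29 and 8.67 in mutants), an ETS factor made by endothelium and also by cartilage. Of 19 epithelial genes, 0 had an unadjusted p under 0.05, but without control 4 there were 5, all lower, and without mutant 4 there were 2. Of 17 immediate early and heat shock genes, which respond to tissue handling, 14 had a higher mutant mean and 2 an unadjusted p under 0.05, which became 0 without control 2 or mutant 2.

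Neuron genes were lower in the mutants of the proximal maxilla in 18 of 19 cases, with a median of -0.67, 2 at an unadjusted p under 0.05 and 0 called. Without control 4, the array with the highest neuron mean, the median was -0.29 with 1 gene lower and 1 higher at that threshold, without control 2 it was -1.13 with 6 lower, without mutant 2 -1.02 with 6, and without control 1 -0.97 with 4. Of 14 tested olfactory, forebrain and pituitary genes 5 had a higher and 9 a lower mutant mean, with a median of -0.08 and with 2 higher and 2 lower at an unadjusted p under 0.05.

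Single genes were ranked by size of difference among those with an unadjusted p under 0.01 and no overlap. Cdhr1, a cadherin of mitral cells and photoreceptors, read 9.13, 8.98, 9.49 and 10.55 in controls and 7.69, 8.83, 6.23 and 8.595 in mutants (-1.70 ± 0.47). Neurog1, which specifies sensory neuron precursors, read 9.68, 9.51, 9.79 and 9.65 against 7.63, 8.79, 7.55 and 8.91 (-1.44 ± 0.42), with controls close together and mutants 1 and 3 far lower. Enpep (-1.47 ± 0.42), Caln1 (-1.35 ± 0.29), Gprin3 (-1.32 ± 0.33) and Cxcl5 (-1.06 ± 0.28) complete the lower side with Nhlh1 and Erg. On the higher side, beside called genes, stood 2610507I01Rik (1.17 ± 0.37), the macrophage gene Ms4a6d (1.17 ± 0.31), Apoe and C1qb. Among all 133 genes that met these criteria 76 were higher and 57 lower.

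Between the ends of the maxilla the genotype difference itself differed for 8 genes (0.0584%), all with the lower effect at the proximal end. The ends are those of the labels: forebrain genes were high on the proximal array of control 3, mutant 2 and mutant 3 but on the distal array of control 2 and mutant 4, and whether the ends of some maxillae were exchanged was not tested. Without the 4 maxilla arrays of control 2 and mutant 4 the number of genes was 35. Nhlh1, a helix-loop-helix factor of newborn neurons, read 8.68, 8.12, 7.98 and 8.91 in proximal controls and 6.95, 7.44, 6.48 and 7.87 in proximal mutants. At the distal end it read 7.41, 7.21, 7.13 and 6.92 in controls and 9.27, 8.596, 8.27 and 7.78 in mutants. The order of the genotypes was thus opposite at the ends, without overlap at either, and the effects of -1.24 and 1.31 differed by -2.55 ± 0.44 (limma adjusted p = 0.0145). Cpeb1, a regulator of message polyadenylation in neurons and germ cells, also had its means in opposite order at the ends. At the proximal end it read 7.64, 7.05, 7.001 and 6.28 against 5.61, 6.35, 4.67 and 6.84, with mutants 2 and 4 above control 4. At the distal end it read 5.79, 6.497, 5.64 and 6.02 against 7.13, 7.91, 7.70 and 6.98, where every mutant was above every control (difference of effects -2.56 ± 0.44).

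The other genes were Sult4a1 (-1.63 ± 0.28), a sulfotransferase of the brain, Kcnh8 (-1.29 ± 0.23), a potassium channel of neurons, Myt1l (-1.19 ± 0.23), a factor of neuronal identity, Tpd52 (-0.92 ± 0.16), Nlk (-0.79 ± 0.15) and Mgst3 (-0.69 ± 0.12). The median effect over the 19 neuron genes was -0.67 at the proximal and 1.21 at the distal end. Without control 1, without mutant 3 and without the 3 arrays high in forebrain genes the number of genes called was 0, 1 and 0, with 695 and 1015 genes at an unadjusted p under 0.05 where it was 0. Without mutant 1 it was 5, without control 2, mutant 2 or mutant 4 it was 14, 13 and 16, and without control 4 it was 66. Against the proximal mandible 1 gene (0.00730%) had a different effect, Lhfpl3, with -0.14 in the proximal maxilla and 1.41 in the mandible (difference -1.54 ± 0.24, limma adjusted p = 0.0135). Without control 1 or mutant 1 that count was 0 in limma, with 382 and 378 genes at an unadjusted p under 0.05, and without mutant 4 it was 2.

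**Figure D5:**
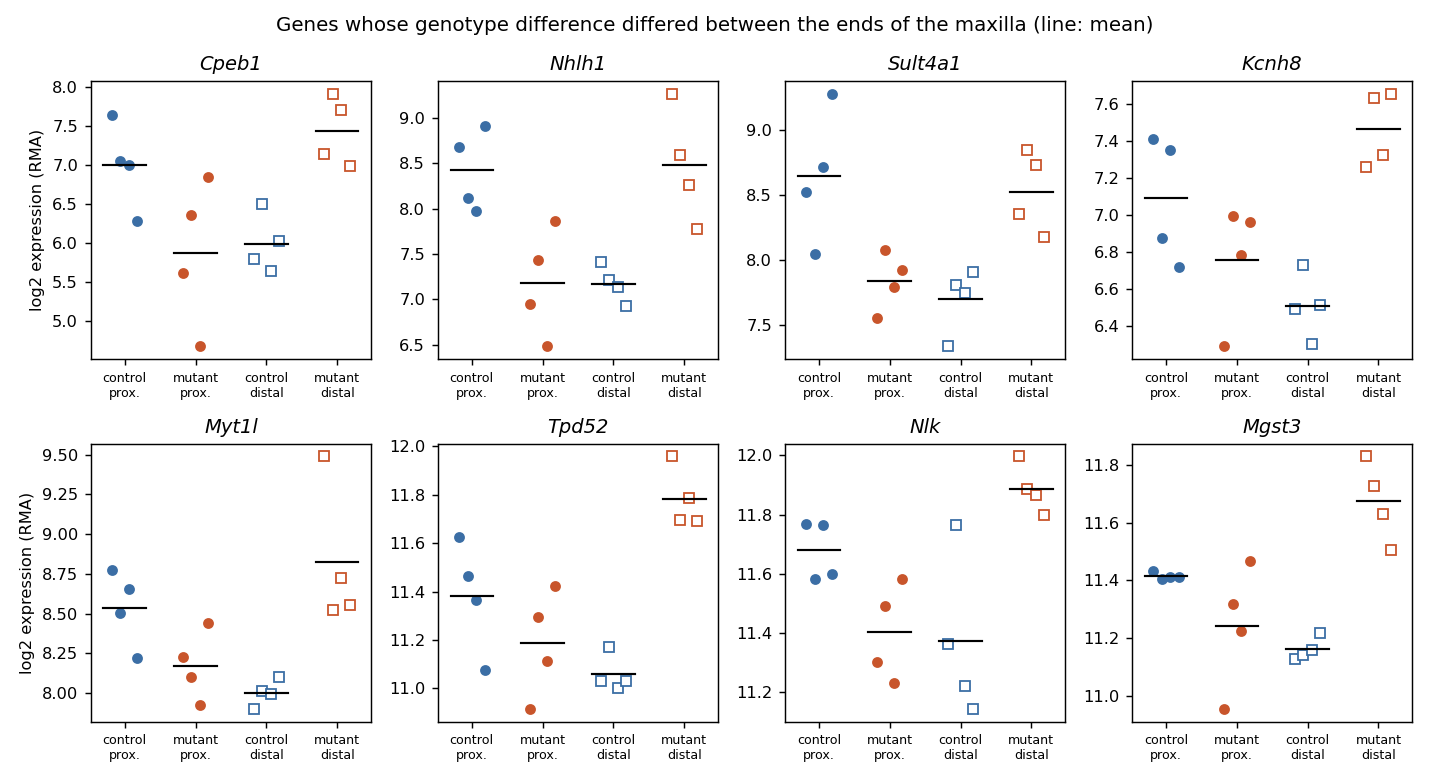
Log2 expression (vertical axes) of the 8 genes whose genotype difference differed between the ends of the maxilla, with proximal arrays as filled circles, distal arrays as open squares and means as lines. In each panel the mutant mean is below the control mean at the proximal end and above it at the distal end, for Nhlh1 by -1.24 and 1.31.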

How the data were processed

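The authors deposited log2 intensities, summarised for each probe set by RMA per the submitters' processing notes (version not given in the sources used here). RMA compresses differences of dim probe sets and removes shifts common to most genes. Of 45101 probe sets, 34945 had 1 gene symbol in the platform annotation. Those above their array's percentile 40 on at least 4 of 32 arrays were kept, and each gene was represented by its brightest kept probe set (mean of the 32 arrays), giving 13705 genes. limma 3.58.1 in R 4.3.3 fitted 8 group means to all arrays (24 residual degrees of freedom, eBayes), and p-values were adjusted by the Benjamini-Hochberg method over all genes with a threshold of 0.05. All SEs and adjusted p-values come from this fit, and the scripts were tested on simulated data. Array numbers limit the precision.

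The comparison, gene lists and named genes were chosen with earlier results of these data known. Named genes were drawn from Tgfbr1, all called genes, the 8 largest non-overlapping differences in each direction at an unadjusted p under 0.01, and the 4 largest differences between regions in each direction. They were also drawn from the 3 members of each list with the smallest p, where it was under 0.05 unadjusted, and from further list members chosen after their values were seen. Not every gene that met these rules is named. Sequences and names come from RefSeq tables (GRCm38.p6). The files name no genome build, so no array coordinates are given. Alternatives covered normalization, filters, probe set choice, covariates, array weights and left-out arrays.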

Additional observations from a re-analysis of the deposited data

Results flagged for a closer look

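In 6 of 122 groups of 4 arrays (61 genes, control and mutant), a single array lay far from the other 3 by Dixon's criterion, which chance meets in about 1 group of 20. C3ar1 read 7.27 on control 2 (7.65 to 7.69 on the other controls), and Mpeg1 read 9.11 on mutant 2 (8.56 to 8.61). Ltbp3 and Tnfsf11 were high on control 1, at 12.05 (10.81 to 10.97) and 7.04 (5.06 to 5.27), which is also the array with the highest cartilage genes. Erbb3, a neuregulin receptor of Schwann cells, read 10.05 on mutant 3 (10.50 to 10.58), and Aldh1a3, a retinoic acid synthesis enzyme, read 8.38 on control 4 (10.71 to 10.96), the array with the highest neuron genes.

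The effect of genotype in the proximal maxilla minus that in the distal maxilla was tested directly and passed for Cpeb1 (-2.56), Nhlh1 (-2.55), Sult4a1 (-1.63), Kcnh8 (-1.29), Myt1l (-1.19), Tpd52 (-0.92), Nlk (-0.79) and Mgst3 (-0.69), and the difference from the proximal mandible passed for Lhfpl3 (-1.54). Forebrain and neuron genes varied between the maxilla arrays of both ends. With the forebrain list as a covariate 24 genes passed for the ends of the maxilla, and without the 3 proximal arrays high in those genes 0 passed in limma, with 1015 at an unadjusted p under 0.05. Without the 4 maxilla arrays of control 2 and mutant 4, whose forebrain genes were high at the distal end, 35 passed. Whether ends were exchanged, and the part of the neuron genes, was not tested.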

How the results depend on the processing

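The number of arrays and the shared spread limit every count. The 9 genes called in the proximal maxilla became 213 with array weights, 0 with only the groups compared (628 at an unadjusted p under 0.05), 29 with number 1 as a covariate, 1 without numbers 1 and 2 together and 5 with the mean of probe sets. Among alternatives chosen after seeing the data it was 1 without the 4 maxilla arrays of control 2 and mutant 4, 1 without the 3 arrays high in forebrain genes and 23 with the forebrain list as a covariate. Leaving out single arrays gave 1 to 22, and leaving out a number in both genotypes 0 to 32. No filter, a filter by whole groups, repeated quantile normalization, centring, a trend with a robust prior, sex as a covariate and every probe set on its own gave 8 to 13. An array was taken as female where Xist was above the Y-linked mean. Control 3 was thereby female at the proximal (10.72 against 9.97) and male at the distal end of the maxilla (9.69 against 10.05), so that covariate is uncertain.

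The difference from the distal maxilla (8 genes) became 453 with array weights, 0 with only the groups compared, 3 with arrays centred on the median, 35 without the 4 maxilla arrays, 0 without the 3 arrays high in forebrain genes, 24 with the forebrain covariate, and 0 to 66 and 0 to 90 with an array or a number left out. The difference from the proximal mandible (1 gene) became 155 with array weights, 0 with only the groups compared, 0 without numbers 1 and 2 together, 3 with number 1 as a covariate, 3 with repeated quantile normalization, 6 with the forebrain covariate, 2 with every probe set on its own, and 0 to 2 and 0 to 3 with an array or a number left out. The difference from the mean of the other regions (0 genes, 441 at an unadjusted p) became 207 with array weights, 1 without numbers 1 and 2 together, 1 with no filter, 1 with the mean of probe sets, 1 with every probe set on its own, 5 without the 4 maxilla arrays, and 0 to 3 and 0 to 26 with an array or a number left out. Where these differences gave 0 calls in limma, 151 to 1015 genes had an unadjusted p under 0.05. The cause of these changes was not tested, beyond the fewer samples in fits of only the groups compared and with arrays left out.

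Control and mutant arrays of the proximal maxilla with equal numbers deviated together for numbers 1 and 3 (correlations 0.36 and 0.65). They did not for numbers 2 and 4 (-0.48 and -0.25), so the numbers were not taken as pairs across genotypes. Equal numbers across regions were not compared in this way. A replicate block gave 34 genes over all arrays and 0 over only the groups compared for the genotype effect (728 at an unadjusted p under 0.05), 8 and 0 for the distal maxilla difference and 3 and 0 for the proximal mandible difference. Of 66 results for single genes, 2 changed sign, both without numbers 1 and 2 together: Dkk3 to 0.12 and Wnt9a to 0.0301. Over all settings 1640 values kept direction and call, 159 lost a call and 44 gained one.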
